A study of Mus musculus with 8 samples.

Results

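The 35 genes described here act in cell division. They comprise 14 genes of the S phase and its entry, which license, copy or supply building blocks for DNA (Mcm2 to Mcm7, Pcna, Rrm2, Tyms) or switch that programme on (E2f1, E2f2, Ccne1, Ccne2, Mybl2), and 21 genes of G2 and mitosis (Mki67, Top2a, Ccna2, Ccnb1, Ccnb2, Cdk1, Foxm1, Bub1, Bub1b, Ttk, Aurka, Aurkb, Plk1, Cdc20, Birc5, Cdca8, Kif11, Kif23, Cenpe, Nuf2, Ndc80). The list was set by symbol, and each of the 35 symbols matched a single identifier among the 52636 genes counted. All 35 passed the filter on low counts. RNA-seq was done on 8 mouse samples of malignant mesothelioma, a cancer that grows from the cells lining body cavities such as the pleura: 2 with a double knockout, named in the sample titles as Nf2 and Cdkn2a, and 6 with a triple knockout, named as Nf2, Cdkn2a and Bap1. By these labels both groups carry knockouts of Nf2, whose product merlin restrains growth through the Hippo pathway, and of Cdkn2a, whose products restrain cyclin D kinases and protect p53. They differ by Bap1, a deubiquitinase that removes ubiquitin from histone H2A. The series title describes conditional mouse models. The sources used here do not give the Cre driver, the ages or the number of animals behind each sample. The growth protocol describes cultured cells, while the series' design text speaks of tumours of mice, and each title carries a number of its own whose meaning is not stated.

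Depth ran from 26847202 to 32082535 counts per sample. Levels are CPM, a count scaled to library depth, here after TMM factors. Bap1 stood at 105 CPM (double sample 1) and 71.1 CPM (double sample 2), against 43.1 to 72.1 CPM over the triple knockouts, Nf2 at 165 and 109 CPM against 62.7 to 100.2 CPM, and Cdkn2a at 1.54 and 5.16 CPM against 4.05 to 8.76 CPM, so all 3 transcripts were counted in all 8 samples. Counts over a whole gene check such labels only weakly, since any exons outside a deleted part are counted too. Double sample 1 stood apart. The 16 adult skeletal muscle markers took 6.49% of its counts, while double sample 2 gave them 0.344% and the triple knockouts 0.0156% to 1.74%. The 6 adipocyte markers summed to 579 CPM in it, against 1.41 CPM in double sample 2 and at most 49.9 CPM in the triple samples. Embryonic myogenic markers set both double samples apart. They summed to 6024 CPM (double sample 1) and 1804 CPM (double sample 2), against 3.78 to 128 CPM over the triple knockouts. Of the mesothelial markers, Msln was counted at 12.6 to 342 CPM in the 8 samples, Wt1 was at 0 CPM (double sample 1) and 0.0361 CPM (double sample 2) but reached 33.2 CPM in triple sample 3, and Calb2 had no count in 7 samples. Whether the RNA came from cultured cells or from tumour tissue is unclear, for double sample 1 most of all, so that in it fewer tumour cells and fewer cell cycle transcripts per tumour cell cannot be told apart. Medians of the gene lists, and fold changes of the genes named, singly or as a range, are therefore also given without double sample 1. Such fits still hold double sample 2, which also differed from the triple samples in embryonic myogenic markers.

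In a cycling cell, cyclin D kinases phosphorylate the retinoblastoma protein Rb1 and its relatives, which frees E2F factors to raise genes of DNA replication. Later, B-Myb (Mybl2) and FoxM1 (Foxm1), bound with the MuvB complex, raise genes of mitosis. When cells rest, the DREAM complex, which joins MuvB with an E2F and a pocket protein, holds both sets down, and the levels of these transcripts are for that reason widely read as a measure of proliferation. In bulk RNA, fewer dividing cells and less of these transcripts per cell cannot be told apart.

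The S-phase and mitotic genes differed in what their promoters hold, and 5 windows are printed to show what these elements look like. RefSeq promoter windows (GRCm38.p6, 250 bases before to 50 bases after a start) were at hand for 12 S-phase genes (14 windows) and 18 mitotic genes (18 windows). An E2F element was searched by any of 4 spellings (TTCCCGC or else TTCGCGC or else TTGCCGC or else TTGGCGC), a cell cycle homology region (CHR, the element read by MuvB) as TTTGAA or TTCGAA, and a CCAAT box as CCAAT, each on both strands. The E2F element was matched in 7 of 14 S-phase windows and in 16.7% of mitotic windows, against 9.57% of all 32851 windows. The CHR was matched in 21.4% of S-phase and 77.8% of mitotic windows, against 19.2% of all, and the CCAAT box in 71.4% and 83.3%, against 37.4%. A CHR together with a CCAAT box was found in 72.2% of mitotic windows, in 21.4% of S-phase windows and in 7.52% of all. These matches describe letters and do not show binding. In the windows below, capitals mark the matches, and the last 50 bases follow the start.
Mcm5, chr8:75109259-75109558, plus strand, 3 E2F elements and 3 CCAAT boxes: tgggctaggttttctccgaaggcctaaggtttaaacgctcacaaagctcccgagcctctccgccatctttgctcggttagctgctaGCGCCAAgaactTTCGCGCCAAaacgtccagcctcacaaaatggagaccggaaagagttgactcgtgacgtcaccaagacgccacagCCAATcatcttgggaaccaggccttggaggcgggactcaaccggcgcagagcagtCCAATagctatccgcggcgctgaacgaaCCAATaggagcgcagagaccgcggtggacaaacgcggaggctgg
E2f2, chr4:136172024-136172323, plus strand, 1 CCAAT box and 1 E2F element: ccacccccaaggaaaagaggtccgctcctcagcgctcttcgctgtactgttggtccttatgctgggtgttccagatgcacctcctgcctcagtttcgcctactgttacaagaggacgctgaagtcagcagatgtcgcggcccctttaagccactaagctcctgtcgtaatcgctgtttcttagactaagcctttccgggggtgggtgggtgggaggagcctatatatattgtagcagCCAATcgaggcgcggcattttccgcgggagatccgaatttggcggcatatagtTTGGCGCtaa
Ccnb1, chr13:100786437-100786736, minus strand, 2 CCAAT boxes, the first overlapping an E2F element: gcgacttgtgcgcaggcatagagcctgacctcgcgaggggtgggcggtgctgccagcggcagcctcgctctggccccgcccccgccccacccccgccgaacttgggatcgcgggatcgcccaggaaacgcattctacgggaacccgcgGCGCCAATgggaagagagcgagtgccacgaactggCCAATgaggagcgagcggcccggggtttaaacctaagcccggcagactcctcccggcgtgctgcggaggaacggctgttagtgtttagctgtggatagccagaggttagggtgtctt
Plk1, chr7:122159185-122159484, plus strand, 1 CCAAT box and 1 CHR: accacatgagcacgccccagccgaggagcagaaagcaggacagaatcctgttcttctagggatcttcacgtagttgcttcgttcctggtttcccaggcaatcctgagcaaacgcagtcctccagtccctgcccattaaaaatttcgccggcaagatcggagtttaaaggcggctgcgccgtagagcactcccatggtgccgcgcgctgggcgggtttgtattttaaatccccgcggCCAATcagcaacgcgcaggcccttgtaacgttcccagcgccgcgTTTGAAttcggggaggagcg
Cdc20, chr4:118437294-118437593, minus strand, 1 CHR between 2 CCAAT boxes: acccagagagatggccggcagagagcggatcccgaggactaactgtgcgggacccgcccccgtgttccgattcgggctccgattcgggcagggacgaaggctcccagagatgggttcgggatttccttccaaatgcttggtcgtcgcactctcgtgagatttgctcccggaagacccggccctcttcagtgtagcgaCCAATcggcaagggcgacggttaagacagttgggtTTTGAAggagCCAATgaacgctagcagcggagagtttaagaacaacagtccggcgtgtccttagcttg
In Cdc20 the CHR began 18 bases before the start and in Plk1 it began at base 31 after it. In Mcm5 the last 2 E2F elements overlap and began 152 and 149 bases before the start. E2f2 is shown because it was called between the groups, and was chosen after its values were seen. It has 2 windows, and the one not printed holds a CHR, which the printed one lacks. The other 4 genes shown stand for licensing, mitotic entry and mitotic exit. The RefSeq starts of these 5 windows lie 4 to 120 bases from the gene starts in the deposited tables. Windows of E2f1 and Ccne1 were searched too, held none of these elements and are not printed. The RefSeq start of the E2f1 window lies 466 bases from its gene start in the deposited tables.

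Comparing triple with double knockout, most of these genes had higher levels in the triple samples, but 1 rose and 1 fell by the test. Of the 35, 33 had a log2 fold change above 0, against 50.9% of all 17709 genes tested, with a median of 0.78 against 0.02 over all genes. E2f1 rose and E2f2 fell at an adjusted p under 0.05 (edgeR's quasi-likelihood test, Benjamini-Hochberg over all genes), where 8.35% of all genes were called, 2.94% higher and 5.41% lower. DESeq2 called 5 of the 35, adding Rrm2 (lower), Aurkb and Birc5 (higher), where 19.1% of all genes were called, 8.46% higher and 10.6% lower. Limma-voom called E2f1 alone, where 6.04% of all genes were called, 2.29% higher and 3.76% lower. By edgeR the other 33 did not pass, at adjusted p of 0.0783 to 0.784. Groups did not overlap for 8 of the 35: E2f1, Tyms, Cdk1, Ttk, Aurkb and Birc5 were higher in every triple sample than in both double samples, where 12.8% of all genes were, and E2f2 and Rrm2 were lower, where 11.4% were. The smallest p that the exact permutation test of a single gene can give over the 28 splits of these samples is 0.0357, and 7 of the 35 had it (2-sided). Each of these 7 is among the 8 without overlap. The share of all genes at that p was not counted, so the count is no further result.

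**Figure D1:**
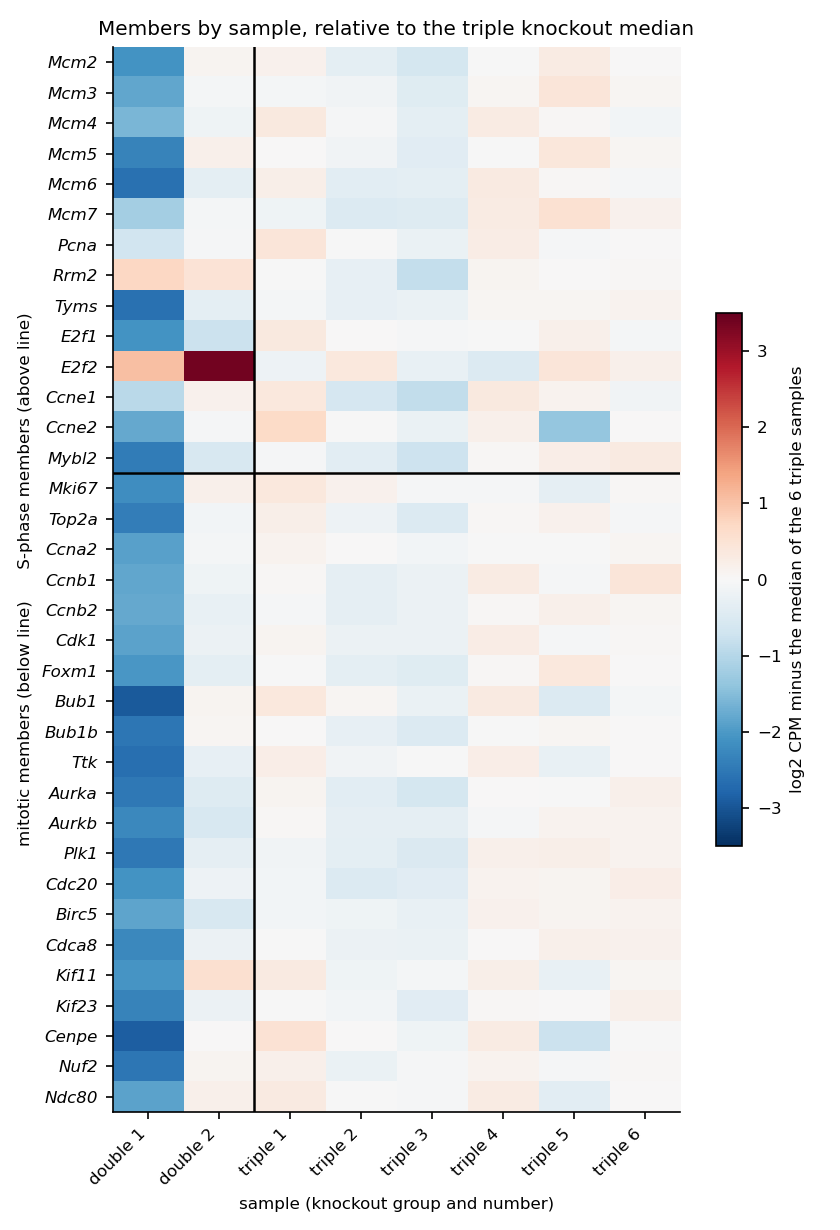
Log2 CPM of the 35 genes (rows) in the 8 samples (columns), each minus the gene's median over the 6 triple samples, with S-phase genes above the horizontal line and mitotic genes below it. Double sample 1 is lowest for 33 genes, while Rrm2 and E2f2 are higher in both double samples than in any triple sample.

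The 2 double samples differed from each other more than double sample 2 differed from the triple samples. Double sample 1 was the lowest of all 8 samples for 33 of the 35 genes, against 32.4% of all genes tested. Double sample 2 lay within the range of the triple samples for 26 of the 35, against 58.9% of all genes tested, and within 1.5-fold of their median for 33. The level in double sample 2 was a median of 4.15 times that in double sample 1. It was 3.39 times for the S-phase genes (range 0.831 to 5.76) and 4.20 times for the mitotic genes (2.44 to 8.25).

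The share called followed the double sample used. Without double replicate 1, the median log2 fold change of the S-phase genes was 0.08 and that of the mitotic genes 0.16, and 9 of the 35 changed sign. In that fit E2f2 alone was called (1.69% of all genes were called, 1.14% lower and 0.553% higher). E2f1 was then at 0.83 and Rrm2 at -0.61. The other 11 S-phase genes ran from -0.23 (Ccne1) to 0.51 (Mybl2), with Tyms at 0.29 and Pcna at 0.11, and the 21 mitotic genes ran from -0.54 (Kif11) to 0.54 (Birc5), with Cdk1 at 0.20 and Foxm1 at 0.30. By edgeR the adjusted p of the 34 genes other than E2f2 was 0.12 to 0.995 in that fit. Without double replicate 2, the medians were 1.82 and 2.23, and 29 genes were called higher, 8 S-phase and 21 mitotic, where 13.7% of all genes were (29.5% in either direction, 15.8% lower). Each of these fits holds a single double sample, which is assumed to vary like the triple samples, so the latter compares double sample 1 with the triple samples and not the genotypes. Markers moved with it: the adult skeletal muscle and adipocyte markers were highest in double sample 1, as given above, and the 10 leukocyte markers summed to 473 CPM in it, while double sample 2 had 877 CPM and the triple knockouts 1094 to 1256 CPM. By mean log2 CPM the leukocyte markers were at 3.36 (double sample 1), 4.53 (double sample 2) and 4.35 to 4.84 over the triple knockouts, so double sample 2 lay inside the triple range. The part of these markers in the result was not tested.

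**Figure D2:**
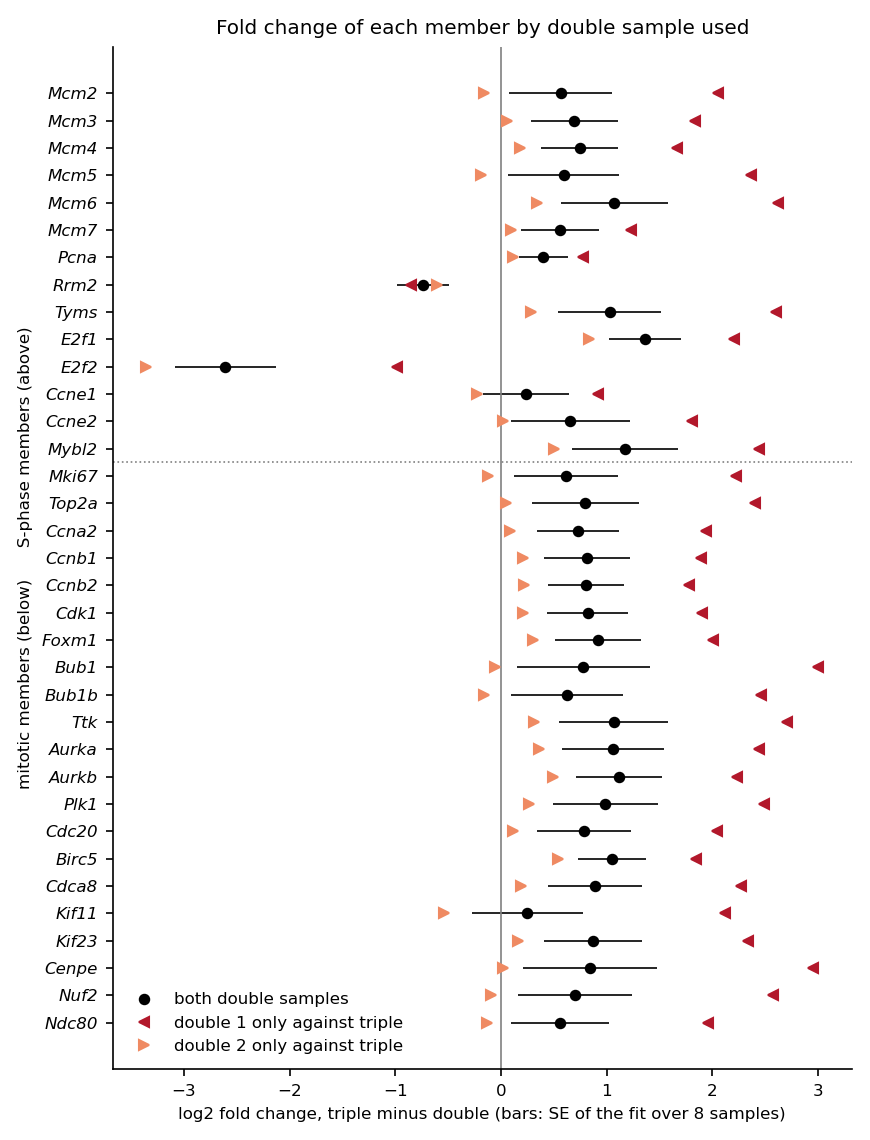
Log2 fold change, triple minus double, of each gene with both double samples (black, with the standard error), with double sample 1 alone (red) and with double sample 2 alone (orange). Values with double sample 2 alone lie from -0.61 (Rrm2) to 0.83 (E2f1) except for E2f2, at -3.36, and values with double sample 1 alone lie above 1 for most genes.

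Among the regulators of S-phase entry, E2f1 and E2f2, both activating E2F factors, moved in opposite directions. E2f1 (chromosome 2, 154559407 to 154569892, GRCm38) stood at 8.05 CPM (double sample 1) and 20.5 CPM (double sample 2), and ran over the triple knockouts from 33.4 CPM through a median of 34.8 CPM to 44.2 CPM. Every triple sample lay above both double samples. The log2 fold change was 1.36 ± 0.34 (SE; adjusted p = 0.0447 by edgeR; exact permutation p = 0.0357). The call was lost in 11 of 20 alternative settings, among them without double replicate 1 (0.83, adjusted p = 0.12), on leaving out each triple knockout in turn (adjusted p = 0.0699 to 0.0855) and with library size alone as the scale (adjusted p = 0.0755).

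E2f2 (chromosome 4, 136172394 to 136196057) stood at 14.2 CPM (double sample 1) and 72.4 CPM (double sample 2), and ran over the triple knockouts from 4.90 CPM through a median of 6.90 CPM to 9.21 CPM. Both double samples lay above every triple sample, and the sample with low levels of nearly all other genes of the list was not low for E2f2. It fell by 2.61 ± 0.48 on the log2 scale (adjusted p = 0.0179 by edgeR; exact permutation p = 0.0357). The fall was 3.36 without double replicate 1 (adjusted p = 0.00523) and 0.99 without double replicate 2 (adjusted p = 0.0876), and the call held when each triple knockout was left out in turn (adjusted p = 0.0317 to 0.0451), while limma-voom missed the threshold (adjusted p = 0.0563). Per kilobase of exon, E2f2 was 1.14 times E2f1 in double sample 1 and 2.28 times E2f1 in double sample 2, but only 0.0877 to 0.164 times E2f1 over the triple knockouts.

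Mybl2, which encodes B-Myb, measured 3.60 CPM (double sample 1) and 13.6 CPM (double sample 2), against 12.2 to 25.1 CPM (median 20.1) over the triple knockouts. Triple sample 3 was below double sample 2, so the groups overlapped, and the log2 fold change of 1.17 ± 0.50 did not pass (adjusted p = 0.167 by edgeR). Cyclin E1 (Ccne1), which with Cdk2 starts replication, measured 12.2 CPM (double sample 1) and 26.4 CPM (double sample 2), against 13.1 to 30.4 CPM (median 23.8) over the triple knockouts. Double sample 2 lay among the triple samples, and the log2 fold change was 0.24 ± 0.41 (adjusted p = 0.732 by edgeR), the smallest in size of the 35. Cyclin E2 (Ccne2) measured 5.34 CPM (double sample 1) and 18.2 CPM (double sample 2), against 7.25 to 29.4 CPM (median 18.6) over the triple knockouts. Its lowest triple value, in triple sample 5, was close to double sample 1, and its 4.06-fold range among triple samples was the widest of the 35. Part of the exons of Ccne2 (17.4%) overlaps a gene on the other strand, and the sources used here do not say whether counting used strand.

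The 6 subunits of the MCM helicase, which is loaded at origins and unwinds DNA, were each low in double sample 1 only. Double sample 1 held 17.4 to 41.9 CPM of each, double sample 2 held 81.2 to 114.5 CPM, and the triple samples held 56.1 to 182 CPM. None was called by edgeR (adjusted p = 0.204 to 0.486, log2 fold changes of 0.55 to 1.07, 0 of 6 at an unadjusted p under 0.05), or by DESeq2 or limma-voom. Mcm5 measured 17.4 CPM (double sample 1) and 100.5 CPM (double sample 2), against 66.7 to 117 CPM (median 88.2) over the triple knockouts. Mcm2 measured 20.3 CPM (double sample 1) and 92.2 CPM (double sample 2), against 56.1 to 105 CPM (median 86.6) over the triple knockouts. For both genes double sample 2 was above the triple median, and their log2 fold changes were below 0 without double replicate 1.

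Pcna, the sliding clamp of the replication fork, varied least between the double samples among the S-phase genes that were low in double sample 1. It measured 46.9 CPM (double sample 1) and 73.0 CPM (double sample 2), against 63.8 to 99.4 CPM (median 74.5) over the triple knockouts, and the groups overlapped (log2 fold change 0.40 ± 0.23, adjusted p = 0.291 by edgeR). The named pseudogenes of Pcna took up to 747 counts in a sample, against 1159 to 2996 counts for Pcna itself, so its level is uncertain. Thymidylate synthase (Tyms), which makes the thymidine nucleotide, measured 6.39 CPM (double sample 1) and 31.2 CPM (double sample 2), against 32.7 to 42.8 CPM (median 39.6) over the triple knockouts. The groups did not overlap, although double sample 2 was close to the lowest triple sample (log2 fold change 1.03 ± 0.49, adjusted p = 0.208 by edgeR).

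Rrm2, the regulated subunit of ribonucleotide reductase, which supplies deoxynucleotides, differed from the other replication genes among the 35. It measured 118 CPM (double sample 1) and 98.4 CPM (double sample 2), against 39.7 to 76.4 CPM (median 71.2) over the triple knockouts. Double sample 1 was the highest of all 8 samples for Rrm2, and among the 35 genes it was the highest for Rrm2 only. Outside the list, the replication gene Rpa1 was also highest in double sample 1 (100.3 CPM, against 66.0 to 88.9 CPM over the triple knockouts). The log2 fold change of Rrm2, -0.74 ± 0.24, did not pass (adjusted p = 0.0938 by edgeR, exact permutation p = 0.0714), and passed in DESeq2 (adjusted p = 0.0462). It was -0.61 without double replicate 1 and -0.85 without double replicate 2, with the same direction in each of the 20 alternative settings.

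**Figure D3:**
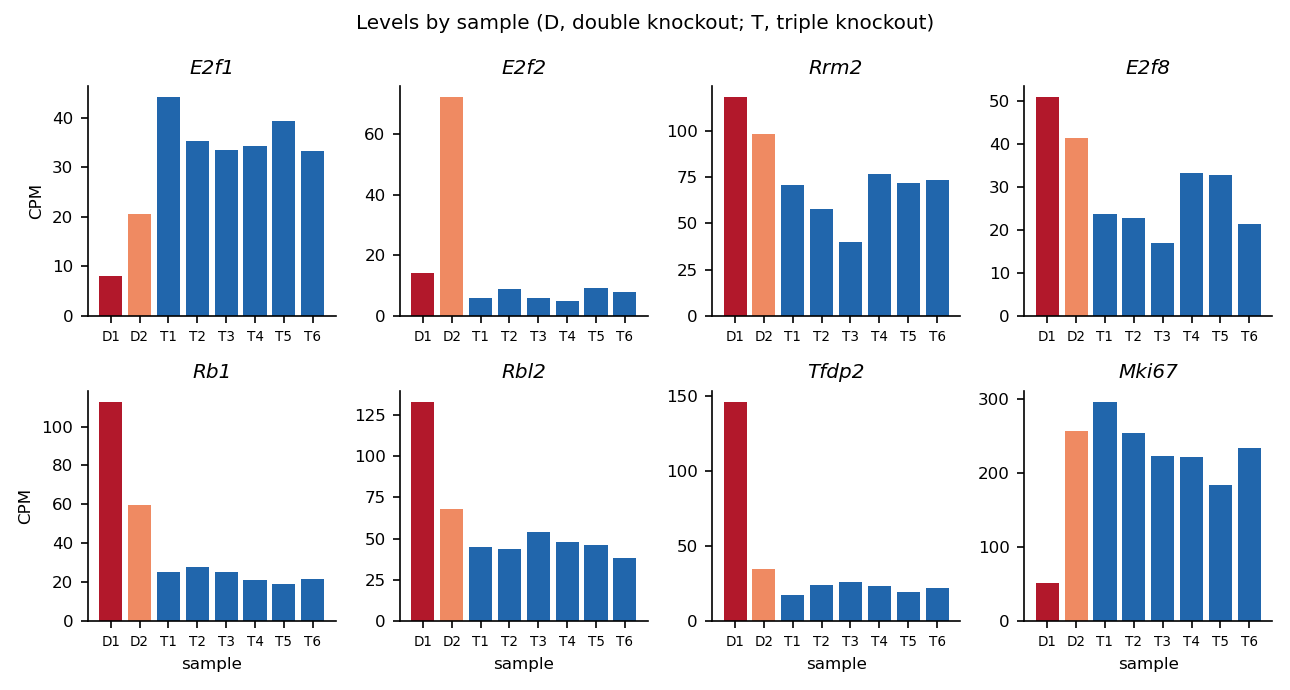
CPM of 8 genes in each sample as bars from 0 (D1 and D2, double; T1 to T6, triple). E2f1 is lower and E2f2, Rrm2, E2f8, Rb1, Rbl2 and Tfdp2 are higher in both double samples than in any triple sample, while Mki67 is low in double sample 1 only.

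All 21 mitotic genes had a log2 fold change above 0, from 0.25 for Kif11 to 1.11 for Aurkb, and 0 were called by edgeR (2 at an unadjusted p under 0.05, where 11.8% of all genes were higher). DESeq2 called 2, Aurkb and Birc5, limma-voom called 0 and limma-voom with sample weights called 0. Ki-67 (Mki67), a standard marker for dividing cells, measured 51.0 CPM (double sample 1) and 257 CPM (double sample 2), against 184 to 297 CPM (median 229) over the triple knockouts. Topoisomerase II alpha (Top2a), which untangles sister chromosomes, measured 42.4 CPM (double sample 1) and 213 CPM (double sample 2), against 163 to 264 CPM (median 227) over the triple knockouts. For both, double sample 2 lay within the triple range and double sample 1 lay far below it. The log2 fold changes were 0.62 ± 0.49 for Mki67 and 0.80 ± 0.50 for Top2a (adjusted p = 0.439 and 0.327 by edgeR).

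Cyclins and kinases of mitotic entry were likewise lowest in double sample 1. Cyclin A2 (Ccna2) measured 25.7 CPM (double sample 1) and 91.5 CPM (double sample 2), against 90.3 to 104 CPM (median 96.4) over the triple knockouts, whose 1.16-fold range was the narrowest of the 35. Cyclin B1 (Ccnb1) measured 13.4 CPM (double sample 1) and 42.4 CPM (double sample 2), against 38.0 to 64.1 CPM (median 47.4) over the triple knockouts. Its kinase Cdk1 measured 21.7 CPM (double sample 1) and 69.1 CPM (double sample 2), against 69.2 to 96.3 CPM (median 80.0) over the triple knockouts. The groups did not overlap for Cdk1, but double sample 2 differed from the lowest triple sample by less than the spread among triple samples (log2 fold change 0.82 ± 0.38, adjusted p = 0.198 by edgeR). Foxm1, the transcription factor of mitotic genes, measured 20.7 CPM (double sample 1) and 66.5 CPM (double sample 2), against 63.3 to 108 CPM (median 84.7) over the triple knockouts. Polo-like kinase 1 (Plk1) measured 8.65 CPM (double sample 1) and 39.7 CPM (double sample 2), against 34.8 to 57.4 CPM (median 49.96) over the triple knockouts. In both, double sample 2 lay in the lower part of the triple range.

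Among the mitotic genes, a pair of chromosomal passenger genes had the smallest adjusted p. Aurora kinase B (Aurkb) measured 7.72 CPM (double sample 1) and 25.4 CPM (double sample 2), against 29.7 to 40.5 CPM (median 37.3) over the triple knockouts. Survivin (Birc5), its partner in that complex, measured 14.8 CPM (double sample 1) and 36.0 CPM (double sample 2), against 44.0 to 59.2 CPM (median 53.0) over the triple knockouts. Both double samples were below every triple sample for each gene. Birc5 had the smallest adjusted p of the mitotic genes (log2 fold change 1.05 ± 0.32, adjusted p = 0.0783 by edgeR, exact permutation p = 0.0357), and Aurkb had 1.11 ± 0.40 (adjusted p = 0.119). Without double replicate 1 they were at 0.54 and 0.49 (adjusted p = 0.291 and 0.387). Borealin (Cdca8), also of this complex, overlapped between the groups, with 8.49 CPM (double sample 1), 35.3 CPM (double sample 2) and 34.5 to 46.1 CPM over the triple knockouts.

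Among checkpoint, motor and kinetochore genes, double sample 2 mostly lay inside or above the range of the triple samples. The checkpoint kinase Bub1 measured 4.33 CPM (double sample 1) and 35.7 CPM (double sample 2), against 23.9 to 43.9 CPM (median 33.7) over the triple knockouts, and the 8.25-fold step between the double samples was the largest of the 35. The kinesin Kif11, which pushes spindle poles apart, measured 13.8 CPM (double sample 1) and 86.0 CPM (double sample 2), against 48.5 to 72.7 CPM (median 58.0) over the triple knockouts. Double sample 2 was thus above every triple sample for Kif11, and the log2 fold change was -0.54 without double replicate 1, against 0.25 ± 0.53 over all 8 samples. The motor Cenpe, which carries chromosomes to the metaphase plate, measured 8.25 CPM (double sample 1) and 62.2 CPM (double sample 2), against 36.6 to 88.0 CPM (median 61.4) over the triple knockouts. Ndc80, which ties kinetochores to microtubules, measured 5.70 CPM (double sample 1) and 23.9 CPM (double sample 2), against 16.3 to 26.5 CPM (median 21.2) over the triple knockouts. Cdc20, which activates the anaphase-promoting complex, measured 13.95 CPM (double sample 1) and 52.0 CPM (double sample 2), against 42.2 to 70.2 CPM (median 59.4) over the triple knockouts. Double sample 2 lay inside the triple range for these last 3. The other mitotic genes (Ccnb2, Bub1b, Ttk, Aurka, Kif23 and Nuf2) had log2 fold changes of 0.62 to 1.06, and Ttk was the only one of them whose groups did not overlap.

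**Figure D4:**
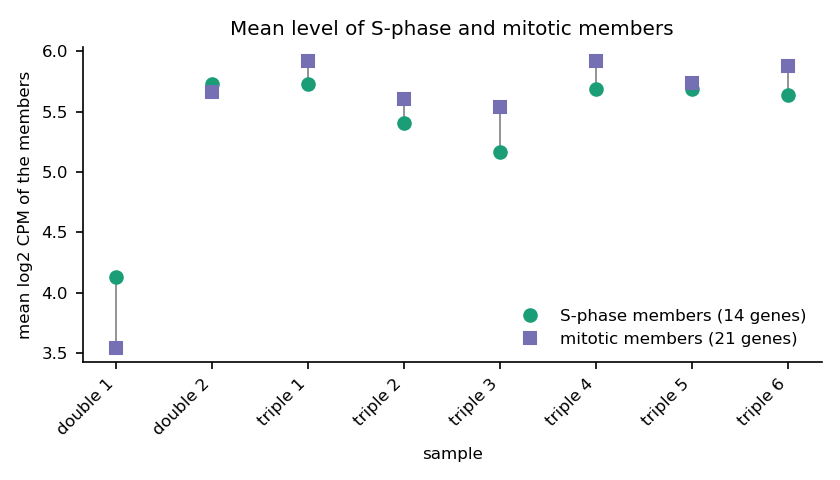
Mean log2 CPM of the 14 S-phase genes (circles) and the 21 mitotic genes (squares) in each sample. The mitotic mean is below the S-phase mean in double samples 1 and 2 and above it in the 6 triple samples, and both means are lowest in double sample 1. E2f2 and Rrm2, higher in the double samples, are among the S-phase genes and enter this split.

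The S-phase and mitotic genes were also set against each other within each sample. The mean log2 CPM of the S-phase genes was 4.13 for double sample 1, 5.73 for double sample 2 and 5.16 to 5.73 over the triple knockouts. That of the mitotic genes was 3.54, 5.66 and 5.54 to 5.92. The mitotic minus the S-phase mean was -0.59 (double sample 1), -0.07 (double sample 2) and 0.05 to 0.37 over the triple knockouts. E2f2 and Rrm2, which are counted among the S-phase genes and were higher in the double samples, enter this difference. They raise the S-phase mean of the double samples, and double sample 2 (-0.07) lay close to triple sample 5 (0.05). The split between the groups is therefore not separate from the results of these genes, and the difference without them was not computed. Across the 8 samples the means had Pearson r = 0.97 and Spearman rho = 0.83, as a description over 8 points that share libraries and depth. Without double sample 1 and triple sample 3, the 2 farthest from the median of the S-phase means, they had r = 0.56 and rho = 0.60. Over the 6 triple samples alone they had r = 0.90 and rho = 0.94.

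The triple samples varied little by comparison. The ratio of the highest to the lowest of the 6 had a median of 1.62 over the 35 genes. Triple sample 3 was the lowest triple sample for 18 of the 35 and the highest for 0. It was also the sample with the mesothelial genes Upk3b (173 CPM, against at most 0.364 CPM elsewhere), Upk1b and Wt1. Summed over all 11 mesothelial markers, however, double sample 2 held more (1346 CPM) than triple sample 3 (920 CPM). Triple sample 1 was the highest triple sample for 13 of the 35, among them Mki67, Top2a, E2f1 and Bub1, and the lowest for 0. Triple sample 5 was mixed. It was the highest for Mcm2, Mcm3, Mcm5 and Mcm7 and for Foxm1 and Plk1, but the lowest for Mki67, Bub1, Ttk, Kif11, Cenpe and Ndc80 and for Ccne2. For Cenpe, triple sample 5 stood at 36.6 CPM while the other 5 triple samples stood at 55.4 to 88.0 CPM.

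Other genes of the same pathways gave a like picture. Of 44 further replication genes, 41 had a log2 fold change above 0, with a median of 0.74, and 0 were called by edgeR (9 at an unadjusted p under 0.05, all higher, where 11.8% of all genes were). DESeq2 called 4 of them higher, where it called 8.46% of all genes higher, and limma-voom called 0. The 2 of smallest p were Rfc2, a clamp loader subunit, at 1.00 ± 0.32 (adjusted p = 0.0886), and Pold1, the catalytic subunit of DNA polymerase delta, at 0.94 ± 0.32 (adjusted p = 0.104). Of 64 further mitotic genes, 62 were above 0, with a median of 0.73, and 0 were called by edgeR (6 at an unadjusted p under 0.05, all higher, with 3 called higher by DESeq2 and 0 by limma-voom). The 2 of smallest p there were Kifc1, a minus-end kinesin, at 1.00 ± 0.34 (adjusted p = 0.105), and Iqgap3 at 1.06 ± 0.37 (adjusted p = 0.107). Without double replicate 1 the medians of these lists were 0.13 and 0.06, with Rfc2 at 0.55, Pold1 at 0.45, Kifc1 at 0.55 and Iqgap3 at 0.48, and edgeR called 0 in either list (2 and 1 at an unadjusted p under 0.05). Among 9 genes of G1 (cyclins, kinases and a phosphatase) edgeR called 0 (3 at an unadjusted p under 0.05, with 1 called by DESeq2 and 0 by limma-voom). Cyclin D2 (Ccnd2) was at 1.92 ± 0.66 (adjusted p = 0.104) and Ccnd3 at -0.61 ± 0.25 (adjusted p = 0.155). Among 8 checkpoint kinases and partners edgeR also called 0 (1 at an unadjusted p under 0.05, with 1 called by DESeq2 and 0 by limma-voom), with Pkmyt1, which inhibits Cdk1, at 1.12 ± 0.40 (adjusted p = 0.113) and Topbp1 at 0.73 ± 0.37 (adjusted p = 0.228). The medians were 0.75 for the G1 genes and 0.37 for the checkpoint genes, and 0.15 and -0.044 without double replicate 1. In that fit Ccnd2 was at 1.15, Ccnd3 at -0.76, Pkmyt1 at 0.545 and Topbp1 at 0.20.

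The partners and brakes of the E2F factors were the exception, with changes in both directions. Of 16 E2F, pocket protein and DREAM genes, 10 had a log2 fold change below 0 and 6 above 0, with a median of -0.19. By edgeR 3 fell, 0 rose and 13 did not pass, beside 5.41% of all genes called lower. Without double replicate 1 the median was -0.079. The retinoblastoma gene Rb1, which restrains activating E2F factors, measured 113 CPM (double sample 1) and 59.4 CPM (double sample 2), against 18.8 to 27.8 CPM (median 23.3) over the triple knockouts. Both double samples lay above every triple sample. Rb1 fell by 1.89 ± 0.24 on the log2 scale (adjusted p = 0.00471 by edgeR), and by 1.36 without double replicate 1 (adjusted p = 0.0376), so the call held without the sample that stood apart. It was lost with limma-voom and sample weights (adjusted p = 0.0574) and among samples with other description codes (adjusted p = 0.16).

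The pocket protein gene Rbl2 (p130), a part of DREAM in resting cells, measured 133 CPM (double sample 1) and 68.0 CPM (double sample 2), against 38.1 to 54.0 CPM over the triple knockouts, and fell by 1.14 ± 0.24 (adjusted p = 0.0263 by edgeR). Without double replicate 1 the fall was 0.58 (adjusted p = 0.208), and without triple replicate 1, 2, 4, 5 or 6 the adjusted p was 0.0508 to 0.0589. Tfdp2, an E2F dimer partner, stood at 146 and 34.2 CPM against 17.3 to 25.9 CPM, and fell by 2.04 ± 0.40 (adjusted p = 0.0225 by edgeR). Its fall was 0.65 without double replicate 1 (adjusted p = 0.283), and the call was also lost without triple replicate 1 (adjusted p = 0.0528) and with limma-voom (adjusted p = 0.0679). E2f8, a repressing E2F chosen after its values were seen, measured 51.0 CPM (double sample 1) and 41.5 CPM (double sample 2), against 16.9 to 33.4 CPM over the triple knockouts. Its groups did not overlap, and its log2 fold change of -0.88 ± 0.27 did not pass (adjusted p = 0.0779 by edgeR). DESeq2 called it (adjusted p = 0.0269), and without double replicate 1 it was at -0.73 (adjusted p = 0.393 by edgeR). The embryonic myogenic markers moved in the same direction as Rb1, Rbl2, Tfdp2 and E2f8. These markers summed to 6024 CPM (double sample 1) and 1804 CPM (double sample 2), against 3.78 to 128 CPM over the triple knockouts. Of the 10, edgeR called 9 lower. Their part in the result was not tested.

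A description code in the labels splits the samples, and its meaning is not given. The code SN930 is carried by triple samples 4, 5 and 6 and by double sample 1, while the rest carry other codes, so code and double sample cannot be told apart within a set. Within SN930, 29 of the 35 genes were called higher, where 4.86% of all genes were (11.8% in either direction, 6.96% lower), with medians of 1.87 for S-phase and 2.36 for mitotic genes. Among samples with other codes 0 of the 35 were called by edgeR (2 at an unadjusted p under 0.05), with medians of -0.03 and 0.02, and 0.00552% of all genes were called. E2f2 was at -0.94 within SN930 (adjusted p = 0.219) and at -3.40 among the others (adjusted p = 0.117). E2f1 was at 2.17 (adjusted p = 0.0326) and 0.86 (adjusted p = 0.278). With the code as a term in the fit, E2f1 (adjusted p = 0.0468) and E2f2 (adjusted p = 0.042) were the only genes of the list called.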

How the data were processed

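The 8 libraries were mRNA-enriched, from total RNA. The values used are unnormalized gene-level counts as deposited by the authors, 1 table for each sample. HTSeq, DESeq2, mm10 and GRCm38 are named per the submitters' processing notes, without versions or roles. Aligner, annotation release and use of strand: not given in the sources used here. Symbols came from a table of gene names (52403 of 52636 genes matched), and exon lengths and overlaps from GENCODE M21 (GRCm38).

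Low counts were removed with filterByExpr. edgeR 4.0.16 (R 4.3.3; TMM, quasi-likelihood) then compared triple with double over all 8 samples with no covariate, and genes at a Benjamini-Hochberg adjusted p under 0.05 were called. Printed levels are CPM with TMM factors. A prior count of 2 was used for log2 levels. Standard errors were derived from the test statistic. Depth was 26847202 to 32082535 counts per sample. Replicate numbers follow accession order. Nothing in the labels says that samples came from separate animals, so p-values measure only the spread between these samples. No 2 samples looked like 1 library deposited again (lowest median chi-square per gene 7.23).

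The members and gene lists were chosen with earlier results of these data known, and no p is given for a list. Members were named for their role in the cycle, when called, or as the largest or smallest change. From each further list of cell cycle genes up to 4 called genes of smallest p were named, or 2 where none was called. Markers of cell types were given mostly as sums or shares. Over all 8 samples edgeR called 2 of the 10 leukocyte markers higher (Cd68 and Itgam), where 2.94% of all genes were. Of the 10, 3 had a log2 fold change below 0. Cd68 was at 1.26 and Itgam at 1.89, and without double replicate 1 they were at 0.94 and 1.25. Over all 8 samples edgeR called 1 of 8 endothelial and 1 of 16 adult skeletal muscle markers lower, where 5.41% of all genes were. Alternatives were DESeq2 1.42.0, limma-voom (limma 3.58.1) with and without sample weights, RLE, upper-quartile and library-size scaling, no filter, a filter of 1 CPM in 2 samples, robust dispersion, the description code as a term or as a subset, and leaving out each sample. In simulated counts for 2 against 6 samples (17402 genes tested), edgeR found 46% of the genes given a 4-fold change, 70% of those given a 16-fold change and 0% of those given a 2-fold change. False calls were 3 of 89 for edgeR and 66 of 197 for DESeq2. Each gene was drawn on its own with the dispersion edgeR had estimated, and no simulated sample was shifted over many genes together. These rates therefore do not cover a sample that stands apart, as double sample 1 did.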

Additional observations from a re-analysis of the deposited data

How the results depend on the processing

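With 2 double samples, the calls rest on each of them. The S-phase count of 2 became 1 with limma-voom, upper-quartile scaling or library size alone, 0 with sample weights, 9 within code SN930, 0 among other codes, and 1 to 8 over the fits without 1 sample (8 without double replicate 2). The mitotic count of 0 became 2 with DESeq2, 20 within SN930 and 21 without double replicate 2, and was 0 to 21 over the fits without 1 sample. The median of the S-phase genes (0.62) was 1.87 within SN930 and -0.026 among other codes, and 0.076 to 1.82 over the fits without 1 sample. That of the mitotic genes (0.82) was 1.15 with limma-voom, 1.14 with sample weights, 2.36 within SN930 and 0.023 among other codes, and 0.16 to 2.23 over the fits without 1 sample. Calls over all genes (1478) were 3380 with DESeq2, 99 with sample weights, 969 with library size alone, 962 with the code as a term, 1 among other codes and 315 to 5579 over the fits without 1 sample. Log2 fold changes below 0 in place of above 0 were, among other codes, Mcm2 -0.34, Mcm3 -0.15, Mcm5 -0.35, Mcm7 -0.30, Ccne1 -0.44, Mki67 -0.0029, Top2a -0.045, Ccnb1 -0.0089, Bub1 -0.0035, Bub1b -0.31, Plk1 -0.0037, Cdc20 -0.15, Kif11 -0.53, Nuf2 -0.13 and Ndc80 -0.095, and without double replicate 1, Mcm2 -0.16, Mcm5 -0.19, Ccne1 -0.23, Mki67 -0.13, Bub1 -0.062, Bub1b -0.16, Kif11 -0.54, Nuf2 -0.095 and Ndc80 -0.14. Without double replicate 2 the latter genes stood at Mcm2 2.05, Mcm5 2.37, Ccne1 0.92, Mki67 2.22, Bub1 3.00, Bub1b 2.46, Kif11 2.12, Nuf2 2.58 and Ndc80 1.95. Library size alone moved the median of all genes to 0.21, and relative to it the direction of the medians of both sets held (0.71 and 0.91). E2f1 kept its direction in 20 of 20 alternatives (adjusted p = 0.00133 to 0.278) and lost its call in 11, and E2f2 kept its direction in 20 and lost its call in 5 (adjusted p = 6.25e-05 to 0.219). The cause of these changes was not tested. No paired analysis was possible because the replicate numbers were given in accession order and the labels pair no samples.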
